A study of Mus musculus with 157 samples.

Results

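The genes described here are the WNT ligands, their Frizzled receptors and their secreted inhibitors, followed in mouse embryonic stem cells after addition of retinoic acid (RA). A gene was taken when its symbol was Wnt, Fzd, Sfrp or Dkk followed by a number and at most a letter a or b. It was represented by its transcript with the highest mean raw count. This gave 37 of the 23643 to 23887 symbols of each table, namely 19 WNT ligands, 10 Frizzled receptors, 4 secreted Frizzled-related proteins (SFRP) and 4 Dickkopf proteins (DKK). They had 47 transcripts, and all 37 genes passed the filter on low counts in all 4 tables.

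WNT ligands are lipid-modified glycoproteins that act over short distances between cells. They bind a Frizzled receptor together with an LRP co-receptor, and the signal stabilises beta-catenin or, on other branches, steers cell polarity and movement. SFRP proteins carry a Frizzled-like domain and bind WNTs outside the cell, whereas most DKK proteins occupy the LRP co-receptor. In mouse embryonic stem cells beta-catenin signalling supports self-renewal, and the same pathway drives primitive streak formation and neural patterning in the embryo.

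E14 is a wild-type mouse embryonic stem cell line, here grown on gelatin with serum and leukaemia inhibitory factor. Cells received 1 µM RA for 2, 4, 6, 24, 48 or 72 h or none (0 h), and all groups came from this single line. Crosslinked chromatin was precipitated for total RNA polymerase II through its N-terminal domain (NTD), for polymerase phosphorylated at serine 5 of the C-terminal repeat (Ser5p, concentrated near promoters) and at serine 2 (Ser2p, found along transcribed genes). There were 17 NTD libraries (2 at 0, 2, 24 and 72 h and 3 at 4, 6 and 48 h) and 18 each of Ser5p and Ser2p, with 3 libraries at 2 h.

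Promoter values are reads in a window that reaches 1 kb up- and downstream of the transcription start (TSS), scaled to library size as CPM. All these windows are 2 kb long, so CPM can be compared between genes. Gene body values are the authors' deposited FPKM, which divides by length. Library totals were 1088159 to 3210580 reads at the TSS for NTD, 1504737 to 3347830 at the TSS for Ser5p, 11684907 to 25696364 over bodies for NTD and 18045745 to 28745658 over bodies for Ser2p. A gene is called when edgeR's quasi-likelihood test gave a Benjamini-Hochberg adjusted p of at most 0.05 over all transcripts of a table. Levels are given with the SD after ±, and log2 changes with the standard error. All comparisons with 0 h share the same 2 untreated libraries per antibody, replicates 1 and 4. The 24 h libraries were replicates 2 and 3, so they share no replicate number with 0 h. At 24 h a change with time therefore cannot be told apart from a difference between replicate sets. No library after 6 h was a replicate 4. Whether replicates stem from separate cultures is not stated in the labels, and the p-values cover the spread among libraries, which may be technical.

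3 libraries stood apart at these promoters. In NTD at the TSS, Fzd8 read 105 CPM in 72 h replicate 3 and 114 CPM in 0 h replicate 4, while the remaining 15 libraries had 11.6 to 44.3 CPM. Fzd7 read 110 and 93.7 CPM in the same pair and 40.5 to 61.7 CPM elsewhere. In Ser5p, the 19 WNT promoters summed to 529 CPM in 0 h replicate 4, whereas the other 17 libraries had 203 to 425 CPM. Results that rest on these libraries are given with and without them.

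Marker lists were summed at 72 h and 0 h in both antibodies. Their calls use both 0 h libraries, so how far they rest on the libraries that stood apart was not tested. Of all symbols 5.56% were called higher and 3.51% lower in NTD at 72 h, and 4.86% higher and 3.92% lower in Ser5p. The 8 pluripotency promoters had an NTD sum of 416 to 457 CPM at 72 h and 661 to 894 CPM at 0 h, and a Ser5p sum of 363 to 502 CPM at 72 h and 637 to 694 CPM at 0 h, with 5 of 8 called lower in each. The 8 primitive endoderm promoters had different calls in NTD and in Ser5p, and a difference between the antibodies was not tested at them. Their NTD sum was 136 to 223 CPM at 72 h and 76.4 to 83.7 CPM at 0 h, with 5 of 8 called higher, whereas their Ser5p sum was 127 to 212 CPM at 72 h and 167 to 256 CPM at 0 h, with Foxa2, Gata4 and Sox17 called lower and Dab2 higher. Over 7 mesoderm and primitive streak promoters Ser5p summed to 112 to 138 CPM at 72 h and 167 to 268 CPM at 0 h, with 5 of 7 called lower, and NTD to 75.7 to 98.2 CPM at 72 h and 54.2 to 80.6 CPM at 0 h, with Tbx6 called higher. Neural promoters (8) had 2 members called lower in Ser5p at 72 h, with sums of 127 to 179 CPM at 72 h and 163 to 275 CPM at 0 h, and Nes called higher in NTD, with sums of 127 to 163 CPM at 72 h and 114 to 123 CPM at 0 h. None of the 7 fibroblast promoters was called by edgeR in NTD or Ser5p at 72 h, where 1 and 2 had an unadjusted p under 0.05. In these bulk libraries a change in the share of cells that use a gene and a change in polymerase per cell cannot be told apart, and the part of the marker changes in the results below was not tested.

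RefSeq promoter sequence of GRCm38.p6 was on hand for 25 of the 37 genes, 23 of them with a single entry. Those 23 held a median of 22 CpG dinucleotides in the 250 bases before the start, against 6 over all 32851 promoters of the table. The GC box letters GGGCGG, on either strand, occurred in 17 of the 23 (73.9%) and in 32.7% of all promoters. CCAAT occurred in 10 (43.5%) and in 33.8% of all, and TATAAA in 3 (13%) and in 12.4% of all. The core motif of RA receptors, AGGTCA, was found in Wnt16 only (4.35%) and in 14% of all promoters, and the TCF/LEF motif CTTTGAT in none of the 23 and in 3.21% of all. A match is a description of letters and not a binding site. The 4 promoters printed here belong to the ligand gene with the clearest gain of NTD (Wnt9a), to 2 ligand genes with a loss of Ser5p (Wnt6 and Wnt10b) and to the inhibitor gene Dkk1. They run from 250 bases before the start to the last base before it, on the strand of the gene, with GC boxes and TATA boxes in capitals. They lie at chr11:59306680-59306929 on the plus strand (Wnt9a, 48 CpG), chr1:74771642-74771891 on the plus strand (Wnt6, 28 CpG), chr15:98778151-98778400 on the minus strand (Wnt10b, 14 CpG, no match) and chr19:30549497-30549746 on the minus strand (Dkk1, 6 CpG).
Wnt9a: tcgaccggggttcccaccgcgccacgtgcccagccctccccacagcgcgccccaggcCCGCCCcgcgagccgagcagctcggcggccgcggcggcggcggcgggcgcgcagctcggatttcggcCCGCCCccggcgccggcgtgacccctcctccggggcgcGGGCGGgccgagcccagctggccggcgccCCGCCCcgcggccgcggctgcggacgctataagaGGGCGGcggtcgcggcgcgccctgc
Wnt6: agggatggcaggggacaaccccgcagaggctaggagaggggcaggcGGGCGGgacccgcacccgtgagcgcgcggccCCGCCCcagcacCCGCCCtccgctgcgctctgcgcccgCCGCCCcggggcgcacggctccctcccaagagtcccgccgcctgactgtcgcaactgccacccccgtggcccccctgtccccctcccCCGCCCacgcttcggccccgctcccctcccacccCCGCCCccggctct
Wnt10b: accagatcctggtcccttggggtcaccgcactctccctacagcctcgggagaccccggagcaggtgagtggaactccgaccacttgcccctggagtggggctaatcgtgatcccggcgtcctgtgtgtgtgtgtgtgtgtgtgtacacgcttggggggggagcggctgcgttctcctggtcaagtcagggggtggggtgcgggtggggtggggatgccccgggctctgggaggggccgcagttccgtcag
Dkk1: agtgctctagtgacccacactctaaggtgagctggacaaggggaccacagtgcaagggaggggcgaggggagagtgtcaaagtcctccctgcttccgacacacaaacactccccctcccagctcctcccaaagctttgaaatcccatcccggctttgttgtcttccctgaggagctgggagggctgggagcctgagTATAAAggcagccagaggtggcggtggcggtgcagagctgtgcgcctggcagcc
These sequences range from the CpG-richest of the 23 (Wnt9a) to one at the median of all promoters (Dkk1), whose capitals mark a TATA box 54 to 49 bases before the start. The Wnt6 stretch lies inside the annotated gene (chr1:74754342-74785322), before a start within it. Whether the starts printed here are those of the transcripts counted at the TSS was not checked.

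Most WNT ligand genes carried little total polymerase throughout. NTD at the promoters of the 18 ligands other than Wnt9a lay between 1.13 and 17.6 CPM over all libraries (median 6.88), where the median promoter of a library had 14 to 16.7 CPM. Ser5p at the same 18 promoters lay between 3.27 and 57.9 CPM (median 13.4), against library medians of 16.6 to 18.9 CPM. Frizzled promoters had more of both, with NTD at 6.57 to 114 CPM (median 29.8) and Ser5p at 8.05 to 63.8 CPM (median 28.4). Over bodies the ligands had a median of 0.739 FPKM for NTD and 0.826 FPKM for Ser2p, and the Frizzled genes 1.34 and 1.12 FPKM. SFRP promoters had medians of 17.8 CPM for NTD and 20.5 CPM for Ser5p, and DKK promoters 8.49 and 12 CPM.

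At 0 h the order of NTD at the TSS began with Fzd7 (68.6 ± 35.6 CPM), Fzd8 (65.2 ± 68.9), Fzd5 (53.6 ± 26.2) and Fzd9 (43.5 ± 5.66), all n = 2, whose values overlapped one another. It ended with Wnt3a at 4.06 ± 0.099 CPM. In Ser5p, Fzd5 (44.9 ± 15 CPM) and Wnt7b (40.8 ± 24.3 CPM) led, so Wnt7b was the ligand promoter with most Ser5p although its NTD was 5.68 and 11.6 CPM. Over bodies NTD was highest at Fzd5 (4.38 ± 1.59 FPKM) and Fzd9 (3.5 ± 0.0636 FPKM), and Ser2p at Fzd9 (1.94 ± 0.12 FPKM) and Fzd5 (1.68 ± 0.127 FPKM). For NTD the 2 genes overlapped (3.25 and 5.5 FPKM at Fzd5, 3.45 and 3.54 FPKM at Fzd9), and for Ser2p both libraries were higher at Fzd9 (2.02 and 1.85 FPKM) than at Fzd5 (1.77 and 1.59 FPKM).

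Against 0 h, NTD rose at Wnt9a from 24 h on, and Ser5p fell at ligand promoters, among them Wnt7b, Wnt10b, Wnt6 and Wnt10a. Fzd3 and Fzd4 were called higher in both NTD and Ser5p at 48 h. At 72 h Fzd1, Fzd2 and Fzd3 were called higher in NTD and Fzd7 in Ser5p. The families were not compared with each other by a test. NTD at the TSS was called at 1, 3 and 6 of the 37 genes at 24, 48 and 72 h against 0 h, where 1.68, 9.78 and 9.07% of all symbols tested were called. Ser5p was called at 5, 11 and 9 of the 37, where 6.45, 11.8 and 8.77% of all were called. Over all times together the F test called 9 of 37 for NTD (15.1% of all) and 13 of 37 for Ser5p (14.2% of all). The authors' deposited table called fewer of these genes, namely 2 higher at 48 h and 1 higher at 72 h for NTD at the TSS, and 1 higher and 1 lower at 48 h and 1 higher at 72 h for Ser5p. It gave no adjusted p for 21 and 17 of the 37 in NTD and for 24 and 18 in Ser5p at these times.

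**Figure D1:**
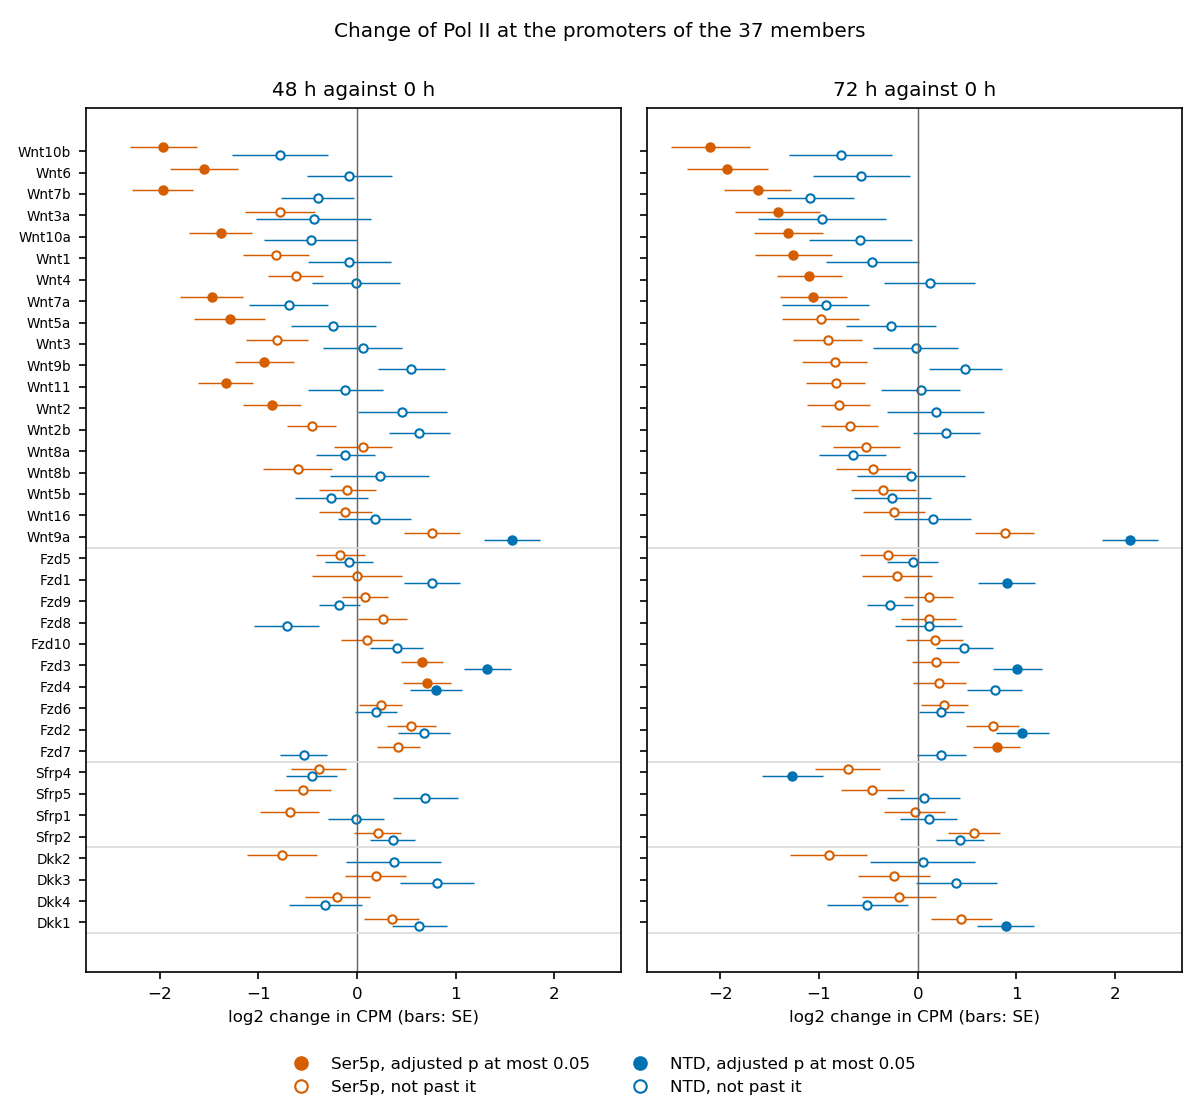
Log2 change of the 37 promoters at 48 h and at 72 h against 0 h, with Ser5p and NTD side by side and bars of 1 standard error. Filled points passed an adjusted p of 0.05. Ligands lie mostly below 0 for Ser5p and around 0 for NTD, apart from Wnt9a, and the Frizzled genes lie mostly above 0.

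Among the ligands, NTD rose at a single promoter. Wnt9a encodes a ligand known from joint and blood stem cell development, and lies at chr11:59306849-59333552 (RefSeq, GRCm38.p6), 16.1 kb from Wnt3a. NTD at its promoter read 12.9 and 10.8 CPM at 0 h, 10.7 and 20.9 CPM at 2 h, 14.4, 17.2 and 12 CPM at 4 h, 23.1, 15.7 and 17.4 CPM at 6 h, 25.2 and 37.2 CPM at 24 h, 34.5, 40.9 and 26.7 CPM at 48 h, and 43.5 and 59.3 CPM at 72 h. From 24 h on each library lay above all libraries of 0 to 6 h. The log2 change against 0 h was 1.42 ± 0.29 at 24 h (adjusted p = 0.00337), 1.57 ± 0.28 at 48 h (adjusted p = 5.98e-05) and 2.15 ± 0.28 at 72 h (adjusted p = 3.5e-07). With 0 h replicate 4 and 72 h replicate 3 both left out it was 1.30 at 24 h (adjusted p = 0.0505), 1.47 at 48 h (adjusted p = 0.00231) and 1.75 at 72 h (adjusted p = 0.00398). Ser5p at Wnt9a read 23.1, 30.2 and 29.8 CPM at 48 h and 14.3 and 18.9 CPM at 0 h, a log2 change of 0.76 ± 0.28 (adjusted p = 0.0678). Its neighbour Wnt3a, the ligand best known for beta-catenin signalling, had an NTD change of -0.97 ± 0.65 at 72 h (adjusted p = 0.427).

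Ser5p fell at ligand promoters. At 48 h 9 of 19 were called lower and none higher, and at 72 h 8 of 19, against 5.5 and 3.92% of all symbols called lower. At 24 h 5 of 19 were called lower, against 3.08% of all, and 0 when the replicate number was added to the model. The median log2 change of the 19 was -0.82 at 24 h, -0.82 at 48 h and -0.91 at 72 h, with 17, 17 and 18 below 0, whereas the medians of all symbols were -0.11, -0.08 and -0.06. NTD at the same promoters had medians of -0.02, -0.08 and -0.26 at these times, which became 0.37, 0.13 and -0.05 with the authors' scale factors, under which the medians of all transcripts were 0.38, 0.20 and 0.14. The Ser5p medians stayed below 0 with those factors, at -0.35, -0.52 and -0.72. A loss of Ser5p was not particular to the ligands. At 72 h 5 of 7 mesoderm and primitive streak promoters and 2 of 8 neural promoters were also called lower, and 0 of 7 fibroblast promoters were called.

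**Figure D2:**
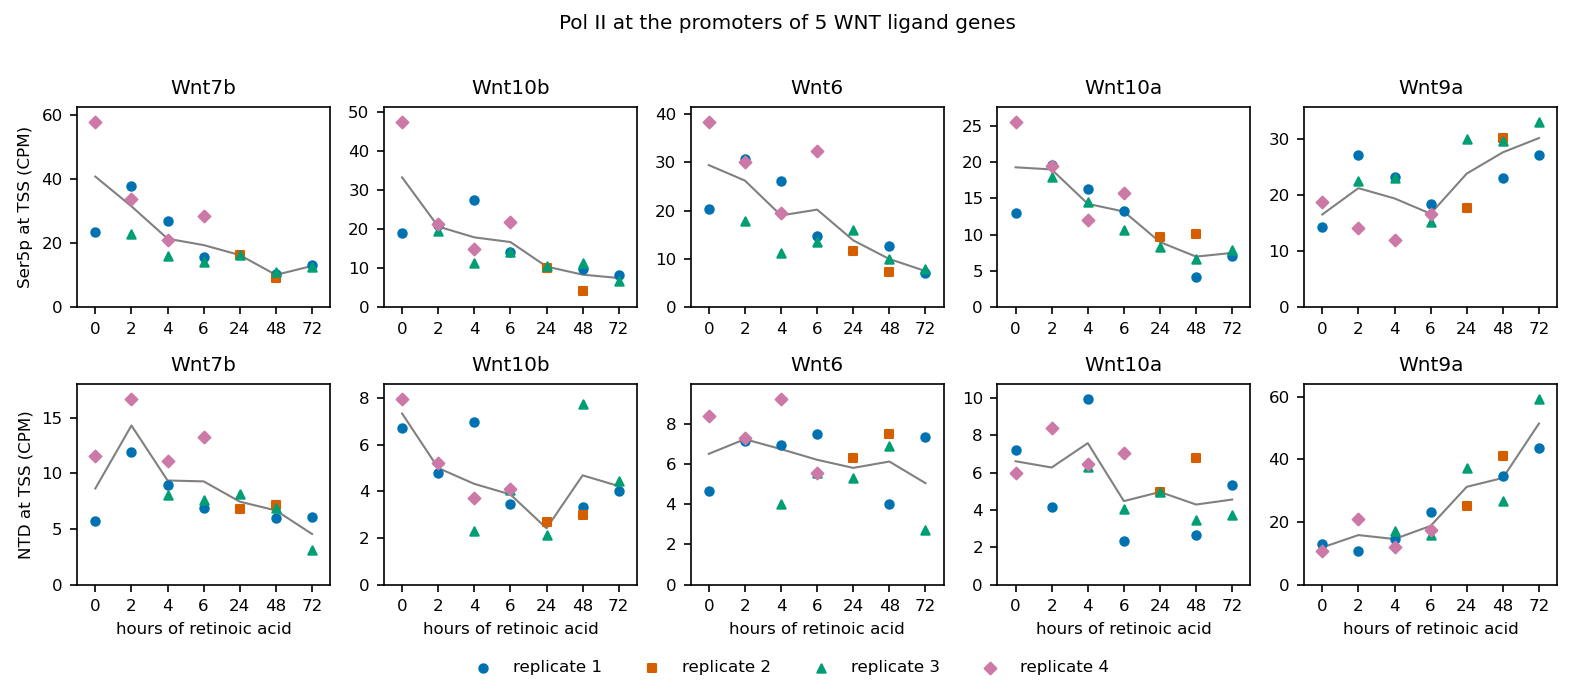
CPM at the promoters of Wnt7b, Wnt10b, Wnt6, Wnt10a and Wnt9a in each library by hours of RA, with Ser5p above and NTD below and a grey line through the means. Ser5p at the first 4 is highest in 0 h replicate 4 and low at 48 and 72 h, while NTD there stays at or below 17.6 CPM, and Wnt9a shows a rise of NTD to 59.3 CPM.

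Wnt7b (chr15:85535437-85581821), a ligand of neural, lung and kidney development, had the lowest adjusted p at 48 h. Its Ser5p read 23.6 and 57.9 CPM at 0 h, 37.8, 23 and 33.7 CPM at 2 h, 27, 16.1 and 21.1 CPM at 4 h, 15.6, 14.1 and 28.5 CPM at 6 h, 16.3 in both libraries at 24 h, 10.3, 9.16 and 10.9 CPM at 48 h, and 13.1 and 12.7 CPM at 72 h. The 48 and 72 h libraries lay below every earlier one. The log2 change was -1.28 at 24 h (adjusted p = 0.018), -1.97 ± 0.31 at 48 h (adjusted p = 3.42e-05) and -1.62 ± 0.34 at 72 h (adjusted p = 0.00121). NTD at Wnt7b read 6.03 and 3.07 CPM at 72 h and 5.68 and 11.6 CPM at 0 h, which overlapped (-1.09 ± 0.44, adjusted p = 0.113), although the F test over all times called it (adjusted p = 0.0321).

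Wnt10b, known for holding back fat cell and promoting bone cell formation, lies 11.7 kb from Wnt1. Its Ser5p read 19 and 47.6 CPM at 0 h, 21.2, 19.6 and 21.3 CPM at 2 h, 27.5, 11.3 and 15 CPM at 4 h, 14.3, 14.1 and 21.8 CPM at 6 h, 10.2 and 10.7 CPM at 24 h, 9.71, 4.12 and 11.3 CPM at 48 h, and 8.18 and 6.86 CPM at 72 h. All 24 to 72 h libraries lay below both 0 h libraries. The log2 change was -1.62 at 24 h (adjusted p = 0.0106), -1.96 ± 0.34 at 48 h (adjusted p = 0.000126) and -2.10 ± 0.40 at 72 h (adjusted p = 0.000393). Wnt1, a ligand of midbrain patterning, had -1.26 ± 0.39 at 72 h (adjusted p = 0.0322).

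Wnt6 and Wnt10a are neighbours on chromosome 1, with 6.7 kb between the annotated genes. Wnt6, a ligand of epithelial tissues, had Ser5p of 20.4 and 38.4 CPM at 0 h, 30.7, 17.9 and 30 CPM at 2 h, 26.1, 11.3 and 19.6 CPM at 4 h, 14.7, 13.6 and 32.3 CPM at 6 h, 11.7 and 16 CPM at 24 h, 12.7, 7.33 and 9.92 CPM at 48 h, and 7.09 and 7.92 CPM at 72 h. It fell at 48 h (-1.55 ± 0.34, adjusted p = 0.00182) and 72 h (-1.93 ± 0.41, adjusted p = 0.00142). Wnt10a, a ligand of teeth, hair and skin, had 13 and 25.6 CPM at 0 h, 16.3, 14.5 and 12 CPM at 4 h, 9.65 and 8.34 CPM at 24 h, 4.25, 10.1 and 6.62 CPM at 48 h, and 7.09 and 7.92 CPM at 72 h. Its log2 change was -1.07 at 24 h (adjusted p = 0.0402), -1.38 at 48 h (adjusted p = 0.00259) and -1.31 at 72 h (adjusted p = 0.0125). At both genes the 48 and 72 h libraries lay below both 0 h libraries, and at Wnt10a all libraries from 24 h on lay below all of 0 to 6 h.

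Further ligand promoters were called lower at 1 or 2 of the late times. At 24 h these were Wnt11 (-0.90, adjusted p = 0.0497) and Wnt9b (-1.08, adjusted p = 0.039). At 48 h they were Wnt11 (-1.33, adjusted p = 0.00109), a ligand of cell movement in gastrulation, Wnt7a (-1.47, adjusted p = 0.00143), a ligand of limb and nerve patterning, Wnt5a (-1.29, adjusted p = 0.0124), the main ligand of the polarity branch, Wnt2 (-0.86, adjusted p = 0.0406) and Wnt9b (-0.94, adjusted p = 0.0321), a ligand of kidney tubule formation. At 72 h they were Wnt3a (-1.42, adjusted p = 0.0292), Wnt4 (-1.10, adjusted p = 0.0266) and Wnt7a (-1.06, adjusted p = 0.0409). Raw counts behind these promoters were 6 to 95 reads per library and window for Ser5p, which limits the precision of any single gene.

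How much of this loss was seen depended on the untreated libraries. Without Ser5p 0 h replicate 4 the members called were 0 at 24 h, 1 at 48 h (Wnt7b, -1.21, adjusted p = 0.0433) and 0 at 72 h, and the ligand medians were -0.52, -0.54 and -0.53. Without 0 h replicate 1 the members called were 7, 10 and 9. The summed Ser5p of the 19 ligand promoters was 317 CPM in 0 h replicate 1 and 529 CPM in 0 h replicate 4, 284 to 425 CPM at 2 h, 248 to 383 CPM at 4 h, 227 to 329 CPM at 6 h, 233 and 263 CPM at 24 h, 225 to 237 CPM at 48 h, and 203 and 246 CPM at 72 h. The late sums thus lay below both 0 h libraries and overlapped those of 6 h. NTD of the 19 summed to 137 to 172 CPM in all 17 libraries. That sum includes the rise at Wnt9a, so it does not show that NTD at the other ligands stayed level.

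A comparison chosen after these values were seen used the 9 Ser5p libraries of 2, 4 and 6 h in place of the 2 at 0 h. At 24 h it called no ligand lower (0.31% of all symbols). At 48 h it called 7 lower (6.64% of all), namely Wnt7b (-1.22, adjusted p = 0.000607), Wnt10b (-1.15, adjusted p = 0.00358), Wnt6 (-1.14, adjusted p = 0.00282), Wnt10a (-1.09, adjusted p = 0.0017), Wnt7a (-0.96, adjusted p = 0.00732), Wnt11 (-0.83, adjusted p = 0.00761) and Wnt3 (-0.67, adjusted p = 0.0463). At 72 h it called 4 lower (4.57% of all), namely Wnt6 (-1.52, adjusted p = 0.00234), Wnt10b (-1.29, adjusted p = 0.0103), Wnt10a (-1.02, adjusted p = 0.0175) and Wnt7b (-0.87, adjusted p = 0.0426). Wnt7b, Wnt10b, Wnt6 and Wnt10a were thus called lower at 48 and 72 h against both 0 h libraries and against 2 to 6 h. With either 72 h library left out the changes of these 4 at 72 h against 2 to 6 h lay between -1.60 and -0.84, and only Wnt6 without 72 h replicate 1 was called (-1.43, adjusted p = 0.0455). Against 0 h replicate 1 alone only Wnt7b at 48 h was called, and Wnt10b, Wnt6 and Wnt10a had -1.19, -1.04 and -0.84 at 48 h (adjusted p = 0.0858, 0.153 and 0.263). 5 members were called higher at 48 h (7.84% of all), namely Wnt9a (0.55, adjusted p = 0.0415), Fzd2 (0.54, adjusted p = 0.0259), Fzd3 (0.66, adjusted p = 0.00141), Fzd4 and Fzd8 (0.62, adjusted p = 0.0148). At 72 h 2 were called higher (6.35% of all), Wnt9a (0.67, adjusted p = 0.0404) and Fzd2 (0.75, adjusted p = 0.00847), both lost without 72 h replicate 3 (0.53 and 0.33, adjusted p = 0.414 and 0.609).

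**Figure D3:**
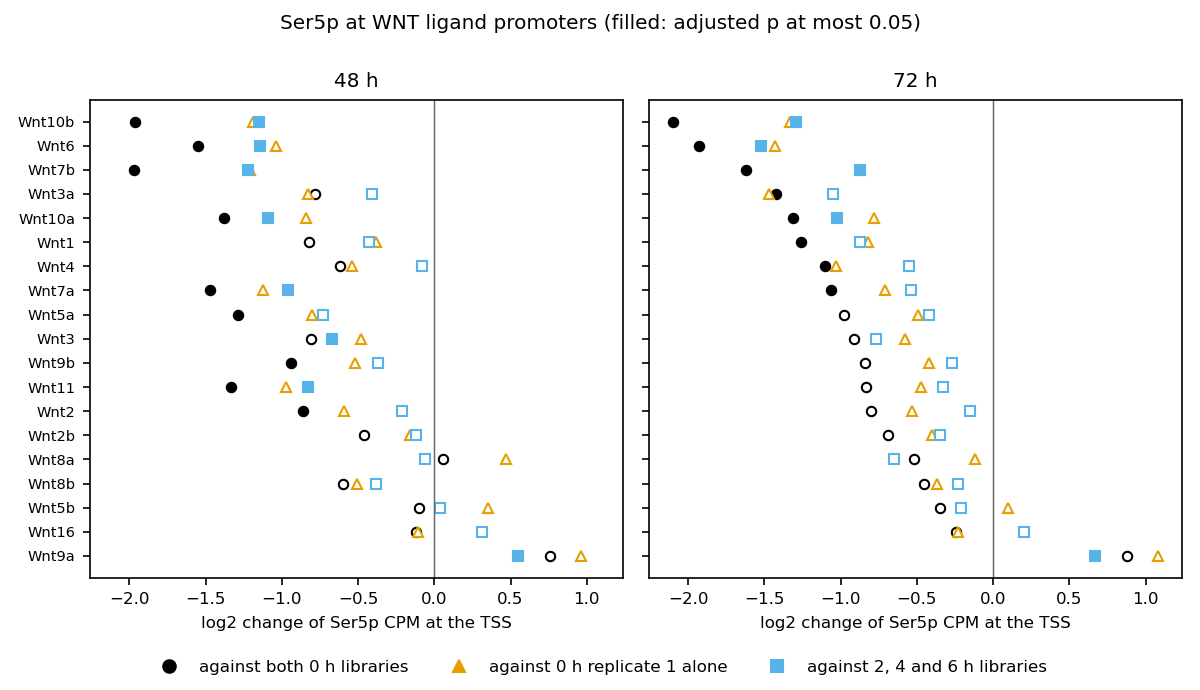
Log2 change of Ser5p at the 19 WNT promoters at 48 h and at 72 h, computed against both 0 h libraries, against 0 h replicate 1 alone and against the 9 libraries of 2, 4 and 6 h. Filled symbols passed an adjusted p of 0.05. The symbols of Wnt7b, Wnt10b, Wnt6 and Wnt10a lie below 0 for all 3 earlier states, and changes are mostly smaller without 0 h replicate 4.

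An interaction term of antibody and time compared the changes of Ser5p with those of NTD. Its main fit treated Ser5p and NTD libraries of the same time and replicate number as independent, as did that of Ser2p and NTD. None of the 37 was called at 24, 48 or 72 h, where 0, 0.41 and 0.0785% of all symbols were. At an unadjusted p under 0.05 the numbers were 6, 13 and 8 of 37, and DESeq2 was not run on this test. The estimated differences of the 19 ligands had medians of -0.75, -0.99 and -0.91, with 0, 1 and 1 above 0, beside medians of 0.04, 0.01 and 0.01 over all symbols. The lowest adjusted p at 48 h was 0.154 at Wnt9b (-1.55 ± 0.49) and 0.169 at Wnt7b (-1.63 ± 0.53). These differences include the 0 h libraries that stood apart in each antibody. NTD at the ligands other than Wnt9a was also low (median 6.88 CPM over all libraries). The 7 fibroblast promoters had NTD means of 3.92 to 8.01 CPM at 0 h. Whether the low level of NTD limited how far it could fall, and its part in the differences, was not tested.

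A few Frizzled promoters were called higher, and none lower at 24, 48 or 72 h against 0 h. The median log2 change of the 10 receptors in NTD at the TSS was 0.22 at 24 h, 0.29 at 48 h and 0.36 at 72 h, with 6, 6 and 8 above 0. In Ser5p it was 0.13, 0.25 and 0.18, with 7, 8 and 8 above 0. NTD was called higher at 2 of 10 at 48 h and 3 of 10 at 72 h, where 4.57 and 5.56% of all symbols were called higher. Ser5p was called higher at 2 of 10 at 48 h (6.32% of all) and 1 of 10 at 72 h (4.86% of all). With 0 h replicate 4 and 72 h replicate 3 both left out, the NTD calls of Fzd4 at 48 h (0.52, adjusted p = 0.383) and of Fzd1, Fzd2 and Fzd3 at 72 h were lost, and that of Fzd3 at 48 h was kept.

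Fzd3 (chr14:65192441-65262463), a receptor of axon guidance and planar polarity, had NTD of 17.6 and 19.1 CPM at 0 h, 20.9 and 24 CPM at 2 h, 26.4, 34.3 and 30.5 CPM at 4 h, 28.3, 35 and 34.1 CPM at 6 h, 22.1 and 41.9 CPM at 24 h, 44.5, 48.4 and 43.9 CPM at 48 h, and 34.2 and 39.6 CPM at 72 h. Its 48 h libraries were the highest of all. NTD rose at 48 h (1.32 ± 0.24, adjusted p = 7.98e-05) and at 72 h (1.01 ± 0.25, adjusted p = 0.00574). Without 0 h replicate 4 and 72 h replicate 3 the changes were 1.41 (adjusted p = 0.00112) and 0.96 (adjusted p = 0.204). Ser5p rose at 48 h (0.66, adjusted p = 0.0354), with 44.3, 46.7 and 35 CPM at 48 h and 23.6 and 29.9 CPM at 0 h. Without 0 h replicate 1 the Ser5p change was 0.50 (adjusted p = 0.311) and without 0 h replicate 4 it was 0.83 (adjusted p = 0.0864).

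Fzd4, the receptor of retinal vessel growth, rose at 48 h in NTD and in Ser5p. NTD read 25.9, 34.2 and 36.1 CPM at 48 h and 22.7 and 14.7 CPM at 0 h (0.80 ± 0.26, adjusted p = 0.0415). Ser5p read 41.3, 33.9 and 44.9 CPM at 48 h and 26.4 and 21.9 CPM at 0 h (0.71, adjusted p = 0.0434). The groups did not overlap in either antibody, but without 0 h replicate 4 the NTD change was 0.52 (adjusted p = 0.446) and the Ser5p change 0.60 (adjusted p = 0.284). Against the libraries of 2 to 6 h the changes at 48 h were 0.55 in NTD (adjusted p = 0.0387) and 0.87 in Ser5p (adjusted p = 0.000212).

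Fzd2 (chr11:102604431-102608058), a receptor that takes part in both the beta-catenin and polarity branches, had NTD of 19.6 and 19.5 CPM at 0 h, 17.3 and 12.5 CPM at 2 h, 17.9, 22.3 and 18.5 CPM at 4 h, 22.5, 23.3 and 17.8 CPM at 6 h, 30.2 and 27.3 CPM at 24 h, 18.6, 37.6 and 37 CPM at 48 h, and 28.8 and 50.1 CPM at 72 h. It rose at 72 h (1.06 ± 0.27, adjusted p = 0.00623), but 72 h replicate 3 was the high library, and without it the change was 0.57 (adjusted p = 0.421). Against 2 to 6 h the 72 h change was 1.16 (adjusted p = 3.08e-05), with both 72 h libraries above those 8, and 0.68 without 72 h replicate 3 (adjusted p = 0.183). Fzd1, its close relative, read 16.7 and 21.5 CPM at 72 h and 13.4 and 7.97 CPM at 0 h (0.90 ± 0.29, adjusted p = 0.041), and 0.32 with both libraries that stood apart left out (adjusted p = 0.872).

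Fzd8, which encodes a receptor whose WNT-binding domain is known in structure, had 2 libraries far above the rest. NTD read 16.5 and 114 CPM at 0 h, 20.9 and 16.7 CPM at 2 h, 12.9, 14.9 and 11.6 CPM at 4 h, 17.3, 18.3 and 15.6 CPM at 6 h, 26.1 and 34.4 CPM at 24 h, 34.5, 44.3 and 43 CPM at 48 h, and 32.2 and 105 CPM at 72 h. Against both 0 h libraries it was called lower at 2 h (-1.83 ± 0.41, adjusted p = 0.0223), 4 h (-2.35 ± 0.37, adjusted p = 0.00015) and 6 h (-1.98 ± 0.36, adjusted p = 0.000581), where 0.443, 0.858 and 0.872% of all symbols were called and no other member was. Without 0 h replicate 4 these changes were 0.17, -0.35 and 0.01, so their direction at 2 and 6 h and every call rest on that library. Against 2 to 6 h Fzd8 was higher at 48 h (1.34, adjusted p = 0.000625) and at 72 h (2.16, adjusted p = 1.28e-07), but without 72 h replicate 3 the 72 h change was 1.02 and not called (adjusted p = 0.139). All 24, 48 and 72 h libraries lay above all 8 libraries of 2 to 6 h.

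Fzd7, the receptor most often linked to WNT signalling in embryonic stem cells, rose in Ser5p at 72 h (0.80, adjusted p = 0.0242), with 45.3 and 59.6 CPM at 72 h and 28.7 and 31.7 CPM at 0 h. Without 72 h replicate 3 the Ser5p change was 0.59 (adjusted p = 0.343), and without 0 h replicate 1 or 4 it was 0.74 or 0.87 (adjusted p = 0.164 or 0.114). Its NTD overlapped between 72 h (47.6 and 110 CPM) and 0 h (43.4 and 93.7 CPM), at 0.24 ± 0.25 (adjusted p = 0.669). Ser5p at Fzd7 already read 38.8 to 47.9 CPM at 2 h. Fzd5 and Fzd9, the receptor genes with the most polymerase over their bodies, had NTD changes at the TSS of -0.05 and -0.28 at 72 h, neither called.

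**Figure D4:**
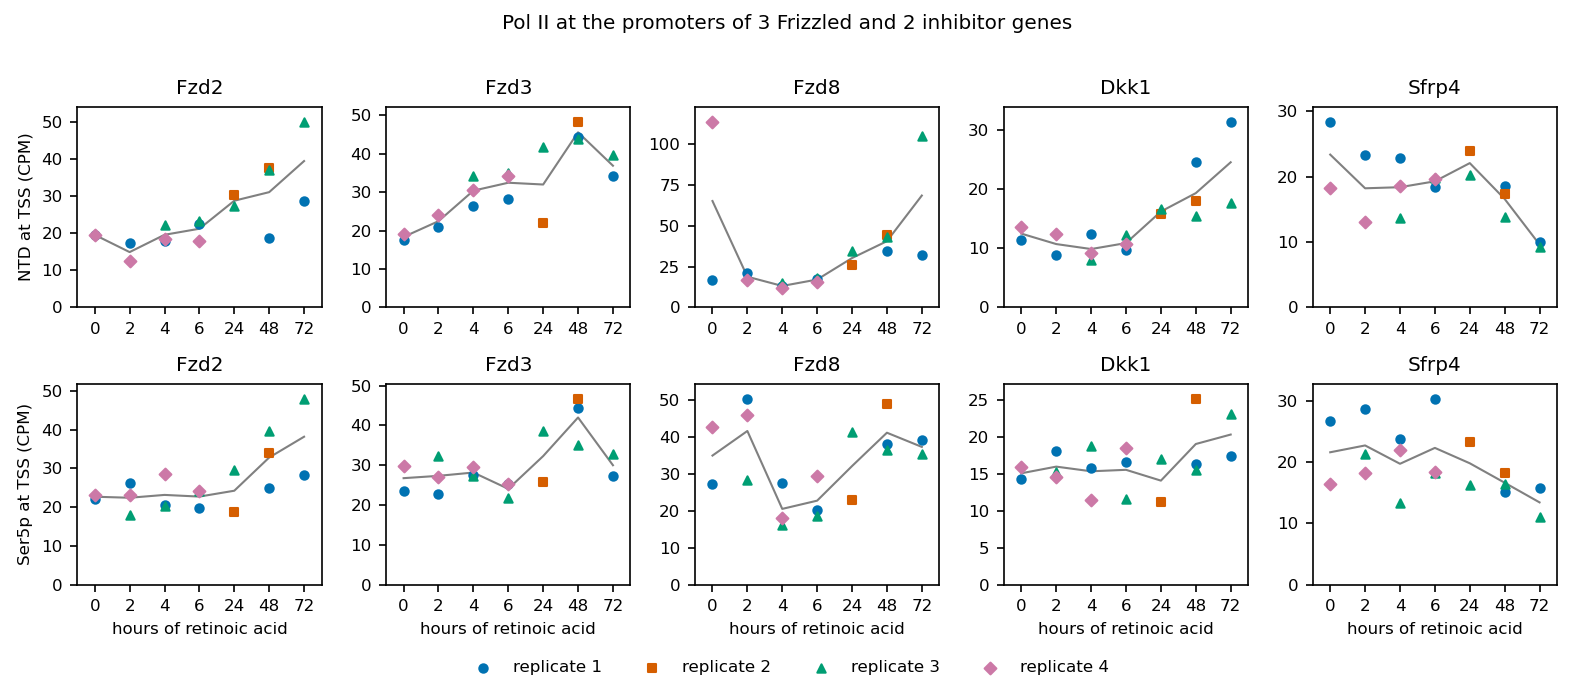
CPM at the promoters of Fzd2, Fzd3, Fzd8, Dkk1 and Sfrp4 in each library by hours of RA, with NTD above and Ser5p below and a grey line through the means. The Fzd8 panel shows the lone high values of 105 CPM at 72 h and 114 CPM at 0 h, and Sfrp4 shows its lowest NTD at 72 h.

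The 8 secreted inhibitors gave 2 calls in NTD at the TSS at 72 h. In Ser5p edgeR called none at 24, 48 or 72 h, with 0, 2 and 3 at an unadjusted p under 0.05. DESeq2 called none at 48 or 72 h, and it gave no adjusted p at 24 h. Dkk1 (chr19:30545876-30549496), which blocks the LRP co-receptor and is itself a WNT target, had NTD of 11.4 and 13.6 CPM at 0 h, 8.96 and 12.5 CPM at 2 h, 12.4, 8.01 and 9.25 CPM at 4 h, 9.8, 12.2 and 10.7 CPM at 6 h, 15.8 and 16.7 CPM at 24 h, 24.6, 18 and 15.5 CPM at 48 h, and 31.5 and 17.7 CPM at 72 h. From 24 h on all libraries lay above all earlier ones. The 72 h change was 0.89 ± 0.29 (adjusted p = 0.0403), 0.52 without 72 h replicate 1 (adjusted p = 0.346), and 1.14 against 2 to 6 h (adjusted p = 0.000214), or 0.77 there without 72 h replicate 1 (adjusted p = 0.0565). Ser5p at Dkk1 read 17.5 and 23.2 CPM at 72 h and 14.3 and 15.9 CPM at 0 h (0.44 ± 0.31, adjusted p = 0.433).

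Sfrp4 (chr13:19623175-19632825), a secreted WNT antagonist, was the only member called lower in NTD at 72 h against 0 h (3.51% of all symbols were called lower). It read 28.4 and 18.3 CPM at 0 h, 23.3 and 13.1 CPM at 2 h, 22.9, 13.7 and 18.5 CPM at 4 h, 18.4, 19.8 and 19.6 CPM at 6 h, 23.9 and 20.2 CPM at 24 h, 18.6, 17.3 and 13.8 CPM at 48 h, and 10 and 9.21 CPM at 72 h. Both 72 h libraries were below all others. The log2 change was -1.27 ± 0.31 (adjusted p = 0.00398), with -0.91 without 0 h replicate 1 and -1.49 without both libraries that stood apart. The call did not hold without 0 h replicate 1, nor without 72 h replicate 3 alone. Each of these fits left a single library at 0 h, at 72 h or at both. Sfrp1, a relative, differed between 72 h (18.1 and 17.7 CPM) and 24 h (7.65 and 7.09 CPM), by 1.28 (adjusted p = 0.0171, and 1.28 without 72 h replicate 3, where it was not called). Against 0 h (18.6 and 14.7 CPM) its 72 h change was 0.11 ± 0.29 (adjusted p = 0.885). The comparison of 72 h with 24 h called 4 of the 37 in NTD at the TSS (3.1% of all). In Ser5p at the TSS, NTD over bodies and Ser2p edgeR and DESeq2 called 0 (1.21, 1.38 and 1.33% of all by edgeR), with 3, 8 and 5 at an unadjusted p under 0.05.

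Over gene bodies few members were called. NTD was called at 0, 1 and 2 of 37 at 24, 48 and 72 h (0.27, 3.53 and 4.27% of all symbols) and Ser2p at 5, 1 and 0 of 37 (12.4, 1.62 and 1.46% of all). At 2, 4 and 6 h neither was called at any member by edgeR or DESeq2, and at an unadjusted p under 0.05 the numbers were 1, 3 and 1 for NTD and 2, 3 and 3 for Ser2p. Of all symbols 0, 0.0229 and 0.064% were called in NTD and 0% in Ser2p. At these times Ser5p at the TSS was also called at 0 members by both tools (0.0349, 0.0218 and 0.0611% of all), with 3, 6 and 11 members at an unadjusted p under 0.05. Ser2p at 72 h had 8 members at an unadjusted p under 0.05, and NTD at 24 h had 8, none of either called by DESeq2. The F test over all times called 2 of 37 for NTD (7.32% of all) and 2 of 37 for Ser2p (7.03% of all). No member was called by edgeR for a difference between Ser2p and NTD (0% of all at 24, 48 and 72 h), with 3 at an unadjusted p under 0.05 at each late time.

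Fzd8 had the largest called change of Ser2p over its body. Ser2p read 0.914 and 1.24 FPKM at 0 h, 1.12, 1.05 and 0.991 FPKM at 2 h, 1, 0.91 and 0.804 FPKM at 4 h, 0.936, 0.872 and 1.02 FPKM at 6 h, 1.56 and 2.01 FPKM at 24 h, 1.75, 2.69 and 2.06 FPKM at 48 h, and 1.47 and 1.5 FPKM at 72 h. From 24 h on each library lay above all earlier ones, with the 48 h group highest. It rose at 24 h (0.69, adjusted p = 0.0416, and 0.47 without 0 h replicate 1, adjusted p = 0.149) and 48 h (0.98 ± 0.19, adjusted p = 0.0147), and at 72 h the change was 0.42 ± 0.21 (adjusted p = 0.313). The 48 h change was 0.76 without 0 h replicate 1 (adjusted p = 0.169), and 1.17 against 2 to 6 h (adjusted p = 3.25e-05). NTD over the body of Fzd8 was 2.82, 5.08 and 3.28 FPKM at 48 h and 1.32 and 3.44 FPKM at 0 h, which overlapped.

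**Figure D5:**
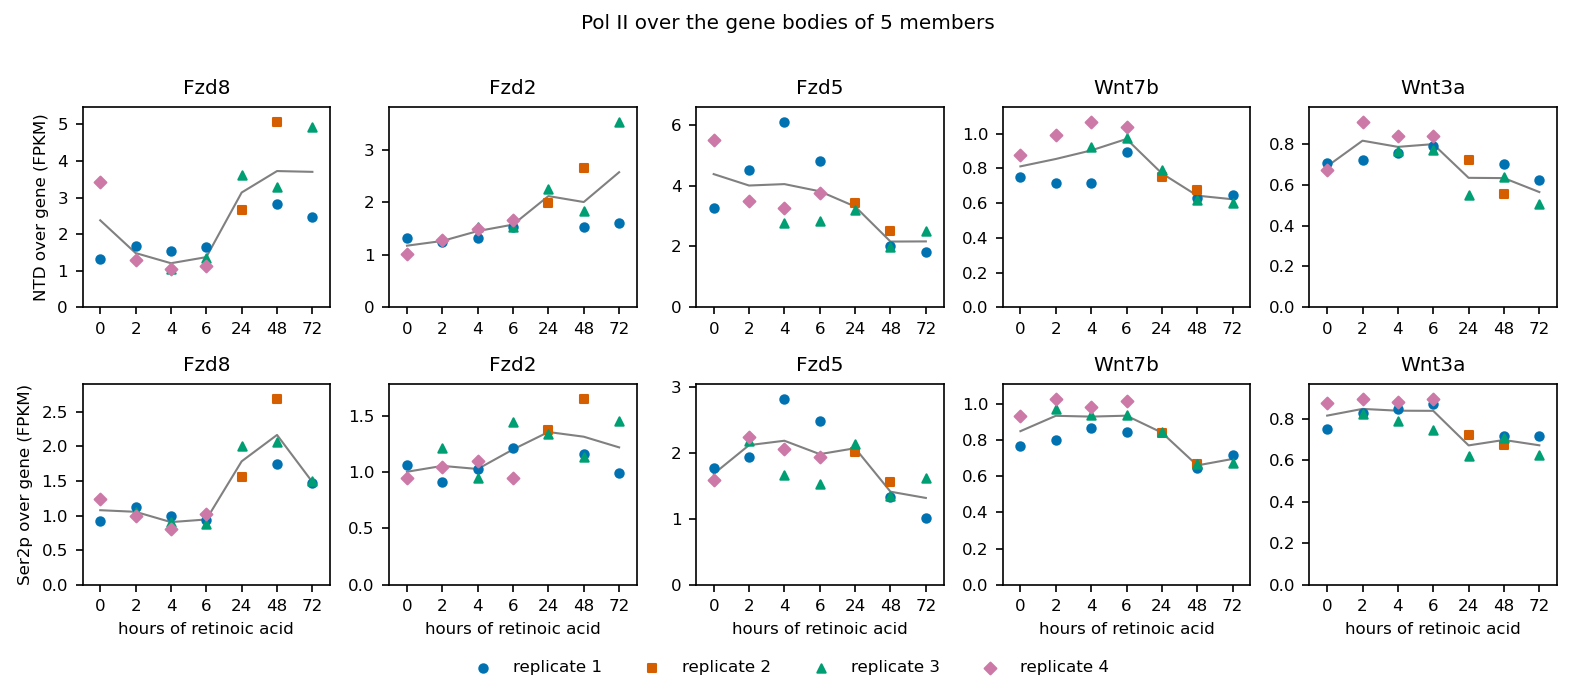
FPKM over the bodies of Fzd8, Fzd2, Fzd5, Wnt7b and Wnt3a in each library by hours of RA, with NTD above and Ser2p below and a grey line through the means. Ser2p of Fzd8 stands higher from 24 h on, and Ser2p of Wnt7b is lowest at 48 and 72 h.

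Fzd2 rose in NTD over its body at 72 h, with 1.61 and 3.54 FPKM at 72 h and 1.33 and 1.02 FPKM at 0 h (1.13 ± 0.29, adjusted p = 0.0363). Without 72 h replicate 3 its change was 0.47 (adjusted p = 0.464). Fzd5, a receptor of eye and placenta development, read 1.82 and 2.51 FPKM at 72 h and 3.25 and 5.5 FPKM at 0 h, and its change of -1.04 ± 0.34 was not called (adjusted p = 0.096). Against 2 to 6 h Fzd5 fell over its body at 48 h in NTD (-0.86 ± 0.25, adjusted p = 0.0333) and in Ser2p (-0.56, adjusted p = 0.0358), and at 72 h in Ser2p (-0.68, adjusted p = 0.0451, and -0.39 without 72 h replicate 1, adjusted p = 0.38), while its promoter was called at none of these times in NTD or Ser5p.

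Of the inhibitors, Sfrp4 fell over its body at 72 h in NTD, with 0.908 and 0.66 FPKM at 72 h and 1.43 and 1.12 FPKM at 0 h (-0.74 ± 0.18, adjusted p = 0.0328). Leaving out any single library of this comparison but 72 h replicate 1 ended the call, with changes of -0.48 (72 h replicate 3), -0.54 (0 h replicate 1) and -0.91 (0 h replicate 4) and adjusted p-values of 0.257, 0.275 and 0.0634. Sfrp5, an antagonist known from endoderm, rose at 48 h, with 1.74, 1.91 and 1.14 FPKM at 48 h and 0.999 and 0.943 FPKM at 0 h (0.74 ± 0.19, adjusted p = 0.046), and 0.69 without 0 h replicate 4 (adjusted p = 0.392). Dkk3, a divergent member of the DKK family, passed the F test over all times for NTD (adjusted p = 0.0362), with 0.755, 0.763 and 0.841 FPKM at 48 h, 0.814 and 0.751 FPKM at 72 h and 0.582 to 0.669 FPKM in all 12 earlier libraries. Its late libraries did not overlap the earlier ones, though the change against 0 h at 48 h, 0.28 ± 0.09, was not called (adjusted p = 0.13).

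Among the ligands, Wnt7b passed the F test for Ser2p over its body (adjusted p = 0.0123). Ser2p read 0.648, 0.668 and 0.666 FPKM at 48 h, 0.72 and 0.673 FPKM at 72 h, and 0.769 to 1.03 FPKM in the 13 earlier libraries, so the late libraries lay below all others. Against 2 to 6 h Wnt7b fell at 48 h (-0.50, adjusted p = 0.00109) and 72 h (-0.43, adjusted p = 0.0115) in Ser2p, and likewise in NTD (-0.49, adjusted p = 0.0136, and -0.56, adjusted p = 0.0132). Without 72 h replicate 3 neither 72 h change of Wnt7b was called (-0.37 in Ser2p, adjusted p = 0.11, and -0.48 in NTD, adjusted p = 0.121). Wnt3a fell in Ser2p against 2 to 6 h at 48 h (-0.27, adjusted p = 0.0346) and 72 h (-0.33, adjusted p = 0.0365, and -0.23 without 72 h replicate 3, adjusted p = 0.267). At 24 h against 0 h Ser2p rose at Wnt4 (0.46, adjusted p = 0.0271), Wnt2b (0.41, adjusted p = 0.0382) and Fzd7 (0.49, adjusted p = 0.0487) and fell at Wnt8b (-0.40, adjusted p = 0.0487). These 24 h calls are 5 of 37 with Fzd8, beside 12.4% of all symbols, and none of the 5 passed once either 0 h or either 24 h library was left out.

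Total polymerase at the TSS was also compared with the 8 NTD libraries of 2 to 6 h. Wnt9a was the sole member called higher at 24 h (0.95, adjusted p = 0.00973), where 0.817% of all symbols were called higher. At 48 h 7 members were called higher (7.15% of all), namely Wnt9a, Fzd1, Fzd2, Fzd3, Fzd4, Fzd8 and Dkk1. At 72 h 6 were higher (9.19% of all), namely Wnt9a, Fzd1, Fzd2, Fzd7, Fzd8 and Dkk1, and 2 were lower (6.72% of all), Sfrp4 (-0.96, adjusted p = 0.00738) and Wnt7b (-1.39, adjusted p = 0.00373). In this comparison 5 of the 10 receptors were called higher at 48 h. The 4 receptor calls at 72 h rest on 72 h replicate 3. Without that library only Wnt9a (1.44, adjusted p = 0.000382) and Dkk1 (1.59, adjusted p = 0.000234) were called higher at 72 h, none of the receptors was called, and Fzd1, Fzd2, Fzd7 and Fzd8 had 0.74, 0.68, -0.15 and 1.02 (adjusted p = 0.234, 0.183, 0.825 and 0.139). Sfrp4 and Wnt7b then had -0.87 and -0.84 (adjusted p = 0.204 and 0.346), so no member was called lower. This setting leaves a single 72 h library, which is assumed to vary like the other groups, and it called 2.55% of all symbols higher. Without 72 h replicate 1 instead, the single 72 h library left is replicate 3, which stood apart, and its calls are not read here. Over bodies NTD was called higher at 5 members at 48 h (5.11% of all) and 5 at 72 h (7.17% of all), and lower at 3 (6.29% of all) and 4 (5.16% of all). Most of these 72 h calls over bodies did not hold without 72 h replicate 3. The members called lower with all libraries were Fzd5, Wnt10a and Wnt7b at 48 h and Sfrp4, Wnt10a, Wnt3a and Wnt7b at 72 h. Ser2p was called higher at 1 member at 24 h (0.876% of all), 2 at 48 h (5.13% of all) and 1 at 72 h (3.63% of all), with Fzd8 among them each time and Dkk3 beside it at 48 h. It was called lower at 3 members, Fzd5, Wnt3a and Wnt7b, at 48 h (5.99% of all) and at 72 h (3.91% of all). Most of the 72 h calls in Ser2p did not hold without 72 h replicate 3, where Fzd5 had -1.05.

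Other genes of the pathway are given by list, against both 0 h libraries, and were not fitted again with any library left out. Of 30 extracellular and membrane partners, NTD at the TSS was called higher at 1, 3 and 3 at 24, 48 and 72 h and lower at none. Of all symbols 0.93, 4.57 and 5.56% were called higher at these times, and nothing particular to the list follows from its count. Wls, the carrier that brings WNTs to the cell surface, rose at all 3 times (1.22 ± 0.27, adjusted p = 0.00791, 1.37 ± 0.26, adjusted p = 0.00018, and 1.66 ± 0.27, adjusted p = 1.96e-05). Lrp6, the main co-receptor, rose at 48 h (0.81 ± 0.22, adjusted p = 0.0115) and 72 h (0.88 ± 0.24, adjusted p = 0.0106), and Tpbg, a membrane inhibitor of the pathway, at 48 h (0.99, adjusted p = 0.00771) and 72 h (1.16, adjusted p = 0.00275). In Ser5p 3, 2 and 1 partners were called higher and 2, 3 and 2 lower. Of all symbols 3.37, 6.32 and 4.86% were called higher in Ser5p and 3.08, 5.5 and 3.92% lower. Nothing particular to the list follows from these counts either. Lrp6 was up (1.5 at 48 h, adjusted p = 0.00023). Frzb, a secreted relative of the SFRP proteins, was down (-1.35 at 48 h, adjusted p = 0.000609). Over bodies 0, 2 and 4 partners were called higher in NTD (0.256, 1.64 and 2.69% of all symbols) and none lower. Among them was Gpc3, a glypican that binds WNTs (1.39 at 72 h, adjusted p = 0.000322).

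Of 26 genes of the intracellular chain, NTD at the TSS was called higher at 0, 3 and 4 and lower at 0, 0 and 1 at 24, 48 and 72 h, to be read against the same shares of all symbols. Ser2p over their bodies was called higher at 8 of the 26 at 24 h, where 8.19% of all symbols were called higher. It was called higher at 1 at 48 h and 1 at 72 h (1.27 and 1.09% of all). Axin2 (1.03 at 48 h, adjusted p = 0.0234, and 1.37 at 72 h, adjusted p = 0.00225) and Nkd1 (0.98, adjusted p = 0.0236, and 1.30, adjusted p = 0.00283), feedback inhibitors that are WNT targets, rose in NTD at the TSS. In Ser5p 2 were called higher and 1 lower at 24, 48 and 72 h, to be read against the Ser5p shares of all symbols given above. Gsk3b, the kinase that marks beta-catenin for breakdown, was higher (0.98 at 48 h, adjusted p = 0.00115). Lef1, a nuclear partner of beta-catenin, was lower (-1.35 at 48 h, adjusted p = 0.000359). Of 15 planar polarity genes edgeR called none at the TSS in NTD or Ser5p, with 1, 2 and 3 at an unadjusted p under 0.05 in NTD and 1, 1 and 0 in Ser5p. Over bodies 1 of them was called higher in NTD at 48 and at 72 h (1.64 and 2.69% of all), Prickle1 (0.45 at 72 h, adjusted p = 0.0157).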

How the data were processed

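Polymerase II ChIP-seq of mouse E14 cells was measured in 53 of the 157 samples of the labels, 17 with the NTD, 18 with the Ser5p and 18 with the Ser2p antibody. The authors deposited 4 tables of 33687 to 33985 RefSeq transcripts. Per the file headers these hold raw read counts per transcript and library, the same as normalized signal, FPKM over gene bodies, and the authors' log2 fold changes and adjusted p-values against 0 h. The submitters' processing notes name Bowtie2, SAMtools, MACS2, DESeq2 and the builds mm10 and dm6. The counting tool is not given in the sources used here. 14 per-group columns were not used, and 80 to 106 RefSeq transcripts without a symbol (0.0166 to 0.0761% of the counts) stayed in the fit but in no count over symbols.

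The counts as deposited were fitted with edgeR 4.0.16 (R 4.3.3) per table, with TMM scaling, a filter on low counts and all times in a single quasi-likelihood model. CPM was computed from the TMM-scaled library size. Contrasts were each time against 0 h, 72 h against 24 h, an F test over all times, and the interaction of antibody and time. P-values were adjusted over 31843 to 32774 tested transcripts. On simulated counts with 3-fold changes the 72 h contrast recovered 89.5% of changed transcripts for NTD at the TSS, 87% for Ser5p, 99% for NTD over bodies, 99.5% for Ser2p and 56.5% for the interaction at the TSS. Changes smaller than that are recovered less often, which was not simulated.

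Alternatives were no filter, the authors' scale factors, DESeq2 1.42.0, the replicate number as a block, the transcript with the lowest mean count, each library left out, and the NTD libraries 0 h replicate 4 and 72 h replicate 3 both left out. The comparison with 2, 4 and 6 h, also with 72 h replicate 1 or 3 left out, was added after the data were seen. Members, gene lists and tests were chosen with earlier results of these data known. By the rule for named genes every member may be named, values per library are given for members that pass the F test (at most 8 per table), and other pathway genes are given by counts and the 3 with the smallest F-test p per list and table. Genes outside that rule, such as Fzd4, were named for a call. The transcript was the same in every table for 33 of the 37 genes. ChIP reads do not tell the strand of transcription, and the annotated genes Wnt9b and Wnt3 overlap by 1.1 kb, so reads there cannot be told apart by gene. None of the 37 shared its counts with another symbol.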

Additional observations from a re-analysis of the deposited data

Results flagged for a closer look

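4 changes in NTD at the TSS differed between 72 h and 24 h, by an edgeR test of 72 h against 24 h over all transcripts (3.1% of all symbols were called). Fzd7 differed by 0.88 (adjusted p = 0.0488), with 47.6 and 110 CPM at 72 h and 40.5 and 48.2 CPM at 24 h. Fzd8 differed by 1.24 (adjusted p = 0.0477), with 32.2 and 105 CPM at 72 h and 26.1 and 34.4 CPM at 24 h. Both groups overlapped, and without 72 h replicate 3 the differences were 0.08 and 0.07. Sfrp1 differed by 1.28 (adjusted p = 0.0171), with 18.1 and 17.7 CPM at 72 h and 7.65 and 7.09 CPM at 24 h. Sfrp4 differed by -1.20 (adjusted p = 0.0172), with 10 and 9.21 CPM at 72 h and 23.9 and 20.2 CPM at 24 h. The groups of Sfrp1 and Sfrp4 did not overlap, and without 72 h replicate 3 their differences were 1.28 and -1.13, with none of the 4 called.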

How the results depend on the processing

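The member counts moved most with the choice of the earlier libraries. Each library was left out in turn. For NTD at the TSS the count of members called ranged over 0 to 1 at 2 h, 4 h and 6 h (0 without 0 h replicate 4), 0 to 4 at 24 h, 2 to 6 at 48 h, 2 to 6 at 72 h (2 without 72 h replicate 3), 0 to 5 for 72 h against 24 h, and 6 to 10 over all times. For Ser5p it ranged over 0 to 2 at 4 h and 6 h, 0 to 8 at 24 h, 1 to 12 at 48 h, 0 to 10 at 72 h (lowest without 0 h replicate 4) and 7 to 17 over all times. For NTD over bodies it ranged over 0 to 4 at 48 h, 0 to 8 at 72 h and 1 to 7 over all times. For Ser2p it ranged over 0 to 10 at 24 h, 0 to 1 at 48 h, 0 to 2 at 72 h, 0 to 3 for 72 h against 24 h and 2 to 5 over all times. The difference of Ser5p and NTD gave 0 to 2 at 24 h and 48 h.

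DESeq2 called 0 members at 2, 4 and 6 h and 0 for 72 h against 24 h in NTD at the TSS, 0 at 24 h (with no adjusted p), 6 at 48 h, 5 at 72 h and 8 over all times in Ser5p, 3 at 48 h, 5 at 72 h and 7 over all times in NTD over bodies, and 4 over all times in Ser2p. The authors' scale factors gave 3 at 72 h and 1 for 72 h against 24 h in NTD at the TSS and 0 at 48 h over bodies. They moved the median of all transcripts at the TSS to between -0.02 and 0.38 for NTD and 0.13 and 0.40 for Ser5p against 0 h. No filter gave 3 at 24 h in Ser2p. Without both NTD libraries that stood apart the counts at the TSS were 0 at 2, 4, 6 and 24 h, 3 at 72 h and 0 for 72 h against 24 h, and Fzd8 reversed to 0.17 at 2 h and 0.01 at 6 h, as it did without 0 h replicate 4 alone (single libraries left out gave -2.58 to 0.17 at 2 h and -2.74 to 0.01 at 6 h). The libraries of 2, 4 and 6 h in place of 0 h gave 7 at 48 h in NTD at the TSS, 8 at 48 h and 9 at 72 h in NTD over bodies, 1 at 24 h, 5 at 48 h and 4 at 72 h in Ser2p, and 0 at 24 h in Ser5p. With 72 h replicate 1 also left out, that comparison gave 10 at 72 h in NTD at the TSS, 5 in Ser5p, 13 in NTD over bodies and 3 in Ser2p, and with 72 h replicate 3 left out 2, 0, 2 and 1. No other value called against 0 h, or in 72 h against 24 h, changed direction. Reversals among calls against 2 to 6 h were not counted. NTD at the Fzd7 promoter at 72 h went below 0 there without 72 h replicate 3.

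With the replicate block the counts were 2 for 72 h against 24 h in NTD at the TSS, 0 at 24 h, 7 at 48 h, 5 at 72 h and 7 over all times in Ser5p, 0 at 48 h, 1 at 72 h and 1 over all times in NTD over bodies, and 0 at 24 h and 0 at 48 h in Ser2p. Replicate numbers were not treated as pairs, because the labels name no shared batch and in no table did every pair of equal number exceed a correlation of 0.1. The pairs above it were 18 of 32 for NTD at the TSS, 18 of 37 for Ser5p, 26 of 32 for NTD over bodies and 17 of 37 for Ser2p. The libraries closest to their own number were 8 of 17, 13 of 18, 8 of 17 and 11 of 18. Median correlations in the same order were 0.11, 0.1, 0.19 and 0.06 for equal numbers and -0.05, -0.03, -0.1 and -0.01 for other pairs. That every pair exceed 0.1 is a demand hard to meet, so its failure does not show that libraries of equal number were independent. For other changes the cause was not tested. Windows with 3 to 41 NTD reads at WNT promoters other than Wnt9a limit what can be detected there.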
